A study of Mus musculus with 36 samples.

Results

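The 48 genes described here encode the proteins that carry a cell through mitosis: mitotic cyclins and their kinases, the spindle checkpoint, the machinery of anaphase, centromeres and kinetochores, spindle motors, condensin and the proteins of spindle assembly and cytokinesis. They were taken as a list of symbols from the bulk RNA-seq of mouse tibiae, and 48 of 48 were in the deposited table of 56246 genes. All 48 also passed the filter of a mean of at least 0.5 TPM (reads of a gene over its length, as a share of all such values in a library), which left 16123 genes to test. The libraries came from 12 wild-type mice, whose treatment label is NT, and from LMNAG608G/G608G mice (here LMNA G/G) that received saline (12 mice) or ABE (12 mice) by retro-orbital injection at P14, 14 days after birth. ABE, an adenine base editor, was carried by a pair of AAV9 vectors and acts on a mutant human LMNA transgene that every LMNA G/G mouse carries in double copy beside its own Lmna and no wild-type mouse does. Each group held 6 males and 6 females, and all mice were 6 months old. Marrow and epiphyses had been removed, leaving mostly cortical bone. Summed scaled TPM of osteocyte markers (Sost, Mepe, Dmp1, Phex and Pdpn) ran from 10.4 to 49.6 in wild-type libraries, 170 to 479 after saline and 174 to 346 after ABE, and those of osteoblast markers from 597 to 2647 in wild-type libraries, 442 to 2052 after saline and 673 to 2096 after ABE.

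A dividing cell builds many of its mitotic proteins anew in each cycle. Their transcripts rise late in the cycle, when repression through the DREAM complex gives way to activation by B-MYB and FOXM1, so these genes are read in bulk tissue mostly as a sign of how many cells are dividing. In adult bone, most osteocytes are not dividing, while blood-forming cells in marrow divide often. Erythroid precursors divide repeatedly between commitment and loss of the nucleus, granulocyte precursors divide up to the myelocyte stage, and B cell precursors expand after rearranging the heavy chain. In bulk RNA, fewer cells of a type and less RNA per cell cannot be told apart.

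Promoters of such genes often hold a CCAAT box, bound by NF-Y, and a cell cycle gene homology region (CHR), bound by DREAM and MuvB complexes. RefSeq gave a promoter for 40 of the 48 genes, in 44 windows of 250 bases before the transcript start (GRCm38.p6). The letters TTTGAA or TTTAAA, the CHR, stood on either strand in 22 of these 44 windows (50.0%) and in 25.2% of all 32851 windows. CCAAT, on either strand, stood in 34 of 44 (77.3%) against 33.8% of all windows, and both motifs together in 19 of 44 (43.2%) against 8.8%. AGATAA or TGATAA, which GATA1 binds in erythroid genes, stood in 4 of 44 member windows (9.1%), in 16.6% of all windows and in 9 of 15 windows of the erythroid precursor markers used below (60.0%). A CCAAT box and a CHR can share their end base, and a match is a description of the letters only.

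Shown first are 5 members that carry both motifs and turn up in the results below, then Pttg1, the 1 member that moved against the others. Capitals mark the CHR and CCAAT letters or their reverse complements, and each sequence ends at the last base before the start. Positions are chr9:70421555-70421804 on the minus strand for Ccnb2, chr4:118437344-118437593 on the minus strand for Cdc20, chr7:122159185-122159434 on the plus strand for Plk1, chr5:30666636-30666885 on the plus strand for Cenpa, chr15:102296043-102296292 on the plus strand for Espl1 and chr11:43425982-43426231 on the minus strand for Pttg1.
Ccnb2: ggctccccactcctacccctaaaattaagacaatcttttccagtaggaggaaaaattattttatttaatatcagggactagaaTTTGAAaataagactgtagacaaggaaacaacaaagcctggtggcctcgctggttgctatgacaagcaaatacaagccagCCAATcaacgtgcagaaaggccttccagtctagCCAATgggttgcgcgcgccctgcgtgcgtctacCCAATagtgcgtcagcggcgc
Cdc20: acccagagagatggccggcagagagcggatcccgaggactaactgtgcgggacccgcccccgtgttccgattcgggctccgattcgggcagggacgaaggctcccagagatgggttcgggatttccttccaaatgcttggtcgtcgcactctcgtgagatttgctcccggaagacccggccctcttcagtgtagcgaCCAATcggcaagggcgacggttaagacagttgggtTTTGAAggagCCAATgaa
Plk1: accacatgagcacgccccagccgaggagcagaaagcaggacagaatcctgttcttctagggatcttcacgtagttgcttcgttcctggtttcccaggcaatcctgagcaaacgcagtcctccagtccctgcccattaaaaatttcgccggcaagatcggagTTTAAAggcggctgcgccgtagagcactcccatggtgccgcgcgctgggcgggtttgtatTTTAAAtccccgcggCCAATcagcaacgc
Cenpa: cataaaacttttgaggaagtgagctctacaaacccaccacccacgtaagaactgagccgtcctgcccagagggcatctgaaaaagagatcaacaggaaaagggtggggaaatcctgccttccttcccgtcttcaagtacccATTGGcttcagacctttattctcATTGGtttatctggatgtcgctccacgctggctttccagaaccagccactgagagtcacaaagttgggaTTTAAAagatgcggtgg
Espl1: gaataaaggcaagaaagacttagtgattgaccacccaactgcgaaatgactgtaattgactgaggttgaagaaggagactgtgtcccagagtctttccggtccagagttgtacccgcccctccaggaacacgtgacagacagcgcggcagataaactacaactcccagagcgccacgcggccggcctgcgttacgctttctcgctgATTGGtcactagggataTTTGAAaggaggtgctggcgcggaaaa
Pttg1: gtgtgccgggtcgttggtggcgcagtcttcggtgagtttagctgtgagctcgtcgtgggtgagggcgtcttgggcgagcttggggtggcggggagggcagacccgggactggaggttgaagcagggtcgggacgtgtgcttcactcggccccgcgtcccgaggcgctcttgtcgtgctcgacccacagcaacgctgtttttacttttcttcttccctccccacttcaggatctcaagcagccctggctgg
In Cdc20 the CHR began 18 bases before the start and the CCAAT boxes 53 and 8 bases before it. Plk1 held CHR letters 89 and 29 bases before its start, Cenpa 17 bases and Espl1 27 bases. Ccnb2 held 3 CCAAT boxes, 87, 54 and 21 bases before its start. The Pttg1 window held neither motif. It lies within the gene as GENCODE draws it (chromosome 11, 43420250 to 43426251, minus strand), since the RefSeq start is farther into the gene. The windows of Cenpa, Espl1 and Cdc20 also run into the GENCODE gene, which begins at 30666777, 102296266 and 118437352. All marked letters of Cenpa, the CHR of Espl1 and the CCAAT box 8 bases before the Cdc20 start lie within it.

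Depth was high for all 36 libraries, with 48064068 to 116206662 reads on genes, and single members had between 97 and 192384 reads in a library. To make libraries comparable, each library's TPM were divided by its median ratio to the geometric mean of all libraries, giving scaled TPM. This ratio was 0.22 in ABE-treated replicate 1, a female, and between 0.61 and 1.57 in the other libraries. On this scale Mki67 was the most abundant member (mean 28.7), followed by Ccnb2 (10.3) and Ncapd2 (9.57), and Cenpk was the least abundant (0.515). Replicate 1 of the ABE group was the lowest of all 36 libraries for 47 of the 48 members. The members moved together across libraries: after group and sex means were taken out, the median correlation of a member with the mean level of all 48 was 0.987, with Pttg1 the exception at -0.65.

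In ABE-treated mice nearly the whole mitotic program was lower than in saline-treated mice. Of the 48 members, 47 fell and 1, Pttg1, rose (limma with Benjamini-Hochberg adjustment over 16123 genes, adjusted p under 0.05), beside 48.5% of all genes called, 23.7% lower and 24.8% higher. The median log2 fold change was -0.61, against -0.0023 over all genes tested. The changes ran from -0.87 for Ccnb2 to -0.30 for Cenpk among the members that fell. No member separated the groups, since the ranges of ABE-treated and saline-treated libraries overlapped for all 48, beside 0.0496% of all genes whose groups did not overlap.

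**Figure D1:**
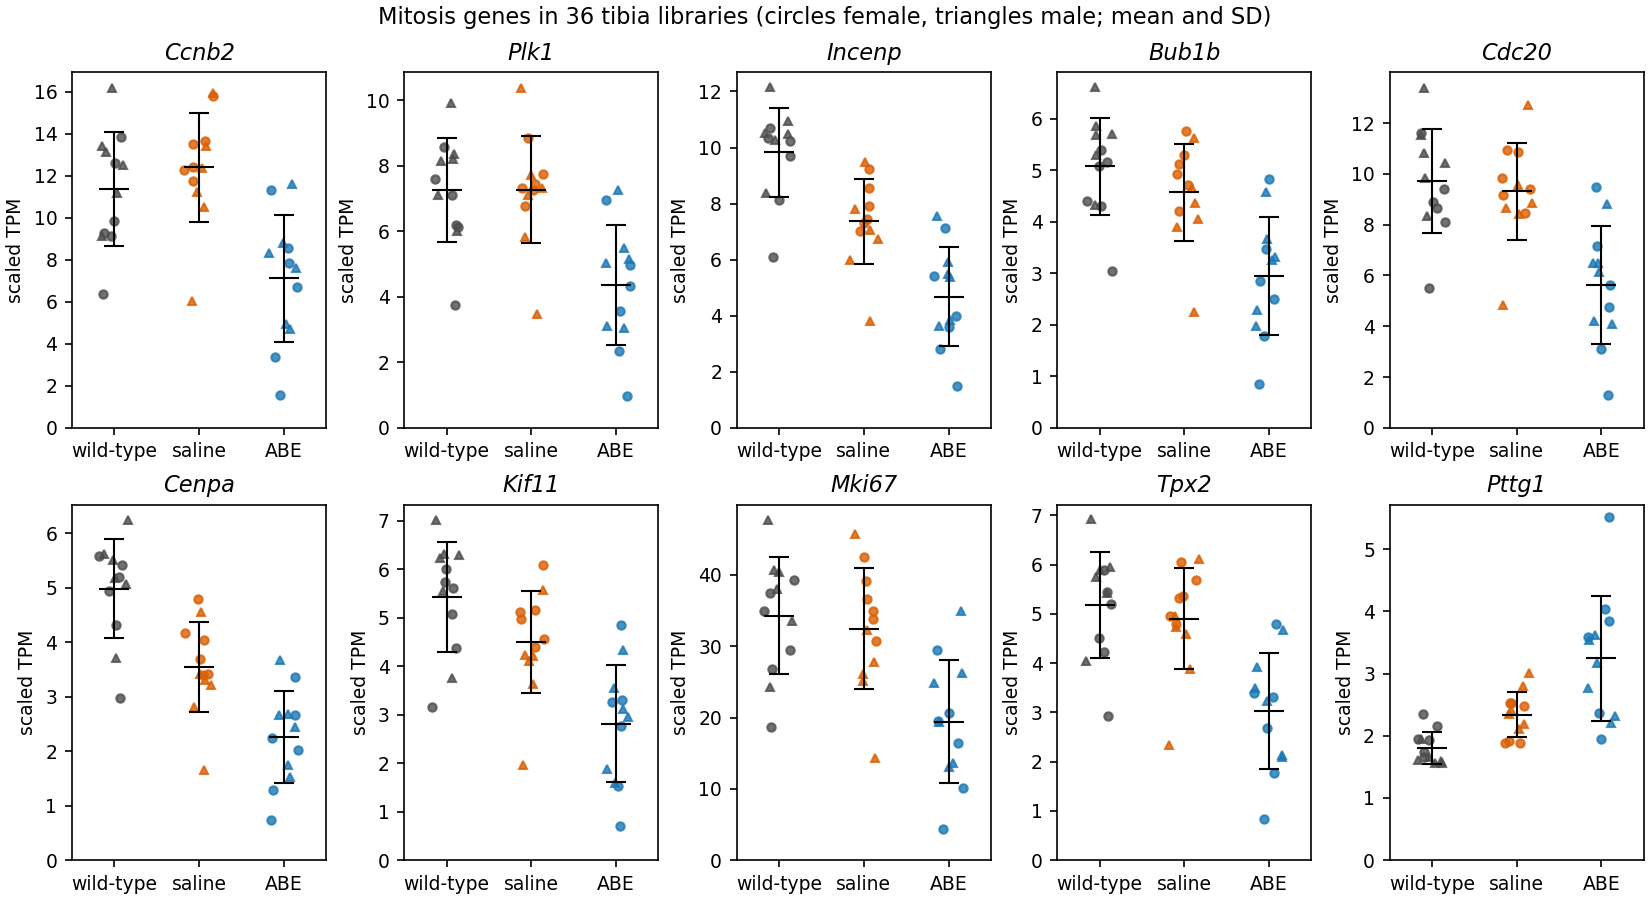
Scaled TPM of 10 mitosis genes in each of 36 tibia libraries by group, with circles for females, triangles for males and the mean and SD of 12 mice in black. For all but Pttg1 the ABE-treated mice lie lowest, as for Mki67 (4.36 to 34.9 against 14.3 to 45.8 in saline-treated mice), and for Pttg1 they lie highest.

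The mitotic cyclins and CDK1 start mitosis, and 4 of 4 fell in ABE-treated against saline-treated mice (median -0.79). Ccnb2 ranged from 6.36 to 16.2 scaled TPM in wild-type mice (median 11.8), from 6.03 to 15.9 in saline-treated mice (median 12.4) and from 1.54 to 11.6 in ABE-treated mice (median 7.72). All 12 ABE-treated libraries were below the median of the saline-treated libraries, and 4 were below the lowest of them. Ccnb2, a cyclin of CDK1, fell by 0.87 ± 0.21 (SE) on the log2 scale, 1.83-fold (limma adjusted p = 0.00168). Ccna2, the cyclin of S phase and mitotic entry, changed by -0.80 ± 0.20 (adjusted p = 0.00237), Ccnb1 by -0.77 ± 0.17 (adjusted p = 0.0013) and Cdk1 by -0.68 ± 0.16 (adjusted p = 0.00181).

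Polo and Aurora kinases act on centrosomes, kinetochores and the central spindle. Plk1 ranged from 3.76 to 9.91 scaled TPM in wild-type mice (median 7.36), from 3.49 to 10.4 in saline-treated mice (median 7.32) and from 0.985 to 7.25 in ABE-treated mice (median 4.64). Again all 12 ABE-treated libraries stood below the saline-treated median. Plk1, which drives mitotic entry and spindle formation, fell by 0.76 ± 0.19 (SE) on the log2 scale, 1.70-fold (limma adjusted p = 0.00222). Aurora A (Aurka) and Aurora B (Aurkb) changed by -0.65 ± 0.17 (adjusted p = 0.00318) and -0.69 ± 0.17 (adjusted p = 0.0026).

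Aurora B works in the chromosomal passenger complex, whose other members here are the scaffold Incenp, survivin (Birc5) and borealin (Cdca8). Incenp ranged from 6.11 to 12.2 scaled TPM in wild-type mice (median 10.3), from 3.82 to 9.49 in saline-treated mice (median 7.38) and from 1.5 to 7.57 in ABE-treated mice (median 4.67). Saline-treated and ABE-treated mice overlapped, with 11 of 12 ABE-treated libraries below the saline-treated median. Incenp fell by 0.66 ± 0.16 (SE) on the log2 scale, 1.58-fold (limma adjusted p = 0.00196), with Birc5 at -0.74 ± 0.18 and Cdca8 at -0.68 ± 0.16.

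The spindle checkpoint holds anaphase until every kinetochore is attached, and its 4 genes had the smallest median change of the 9 roles, -0.41. Bub1b ranged from 3.05 to 6.61 scaled TPM in wild-type mice (median 5.22), from 2.26 to 5.76 in saline-treated mice (median 4.68) and from 0.845 to 4.83 in ABE-treated mice (median 3.05). In 11 of 12 ABE-treated libraries Bub1b was below the saline-treated median. Bub1b, which encodes BUBR1, fell by 0.62 ± 0.16 (SE) on the log2 scale, 1.53-fold (limma adjusted p = 0.00306). The kinases Bub1 and Ttk and the inhibitor Mad2l1 changed by -0.45 ± 0.14, -0.38 ± 0.11 and -0.36 ± 0.10. A constant added before the logarithm understates changes of low genes, and Ttk and Mad2l1 were among the 3 lowest members.

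Anaphase begins when CDC20 and the ubiquitin-conjugating enzyme UBE2C turn the anaphase promoting complex on securin, which frees separase to cut cohesin. Cdc20 ranged from 5.50 to 13.4 scaled TPM in wild-type mice (median 9.62), from 4.83 to 12.7 in saline-treated mice (median 9.28) and from 1.29 to 9.47 in ABE-treated mice (median 5.88). Of the ABE-treated libraries 11 were below the saline-treated median and 5 below the lowest saline-treated library. Cdc20 fell by 0.77 ± 0.19 (SE) on the log2 scale, 1.71-fold (limma adjusted p = 0.00199), Ube2c changed by -0.85 ± 0.20 (adjusted p = 0.00143) and separase (Espl1) by -0.57 ± 0.15 (adjusted p = 0.00269). Ube2c overlaps Tnnc2, a troponin gene of fast skeletal muscle, on the opposite strand. The libraries were stranded, but whether counting used strand is not given in the sources used here.

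Securin itself went the other way. Pttg1 ranged from 1.56 to 2.34 scaled TPM in wild-type mice (median 1.70), from 1.88 to 3.0 in saline-treated mice (median 2.38) and from 1.94 to 5.52 in ABE-treated mice (median 3.36). Here 7 of 12 ABE-treated libraries were above the highest saline-treated library and 9 above the highest wild-type library. Pttg1 rose by 0.36 ± 0.10 (SE) on the log2 scale, 1.29-fold (limma adjusted p = 0.00572). On the TPM as deposited its change was 0.03 and no longer called (limma adjusted p = 0.882), while the median of all genes shifted to -0.27, and its value lay above the median of all genes on both scales. Pttg1 correlated at -0.54, -0.52 and -0.51 with the erythroid, neutrophil and B cell precursor levels and at 0.73 with the level of skeletal muscle markers (36 libraries, group and sex means taken out). With the skeletal muscle level as a covariate Pttg1 stood at 0.14 ± 0.08 (limma adjusted p = 0.223).

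Centromere and kinetochore proteins tie chromosomes to microtubules, and 9 of 9 fell (median -0.54). Cenpa ranged from 2.98 to 6.25 scaled TPM in wild-type mice (median 5.19), from 1.66 to 4.79 in saline-treated mice (median 3.42) and from 0.731 to 3.67 in ABE-treated mice (median 2.34). The saline-treated libraries already sat low, 12 of 12 below the wild-type median, and ABE-treated libraries lower still. Cenpa, the histone H3 variant that marks centromeres, fell by 0.59 ± 0.15 (SE) on the log2 scale, 1.51-fold (limma adjusted p = 0.00305). The 4 subunits of the NDC80 complex, which grips microtubules, changed by -0.40 ± 0.11 (Ndc80), -0.48 ± 0.13 (Nuf2), -0.54 ± 0.14 (Spc24) and -0.57 ± 0.14 (Spc25). Cenpe, a kinetochore motor, and Cenpf changed by -0.54 ± 0.16 and -0.62 ± 0.16, and Cenpk and Cenpn, of the inner kinetochore, by -0.30 ± 0.08 and -0.44 ± 0.10.

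All 6 kinesins fell (median -0.59). Kif11 ranged from 3.16 to 7.02 scaled TPM in wild-type mice (median 5.68), from 1.96 to 6.08 in saline-treated mice (median 4.48) and from 0.696 to 4.84 in ABE-treated mice (median 3.03). Kif11, which pushes spindle poles apart, fell by 0.66 ± 0.18 (SE) on the log2 scale, 1.58-fold (limma adjusted p = 0.00448). Its symbol occurs more than once in the table and a processed pseudogene lies within it on the same strand, so its reads are uncertain. In all, 10 members overlap another gene on the same strand, none of those genes coding, and 10 overlap a coding gene on the opposite strand, among them Kif20a (Cdc23) and Kif4 (Pdzd11). Kif4, Kif20a and Kif23, which act on chromosome arms and in cytokinesis, changed by -0.66 ± 0.16, -0.64 ± 0.15 and -0.51 ± 0.15, and Kif2c and Kif15 by -0.54 ± 0.13 and -0.46 ± 0.14.

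Topoisomerase II alpha and condensin shape mitotic chromosomes, and Ki-67 coats them. Mki67 ranged from 18.7 to 47.7 scaled TPM in wild-type mice (median 36.2), from 14.3 to 45.8 in saline-treated mice (median 33.1) and from 4.36 to 34.9 in ABE-treated mice (median 19.5). In 11 of 12 ABE-treated mice Mki67 was below the saline-treated median, and the groups overlapped widely. Mki67 fell by 0.83 ± 0.23 (SE) on the log2 scale, 1.78-fold (limma adjusted p = 0.00388). Top2a changed by -0.67 ± 0.20, and the condensin genes Smc2, Smc4, Ncapd2, Ncapg and Ncaph by -0.66 ± 0.18, -0.58 ± 0.16, -0.67 ± 0.16, -0.56 ± 0.14 and -0.61 ± 0.15. All 7 genes of this role passed the test.

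Of the genes of spindle assembly and cytokinesis, 8 of 8 fell (median -0.60). Tpx2 ranged from 2.92 to 6.91 scaled TPM in wild-type mice (median 5.43), from 2.33 to 6.12 in saline-treated mice (median 4.96) and from 0.839 to 4.80 in ABE-treated mice (median 3.27). Each of the 12 ABE-treated libraries lay below the saline-treated median. Tpx2, an activator of Aurora A, fell by 0.67 ± 0.17 (SE) on the log2 scale, 1.60-fold (limma adjusted p = 0.00233). Nusap1, which binds spindle microtubules, changed by -0.72 ± 0.18, and Dlgap5, Hmmr and Prc1 by -0.62 ± 0.16, -0.54 ± 0.15 and -0.61 ± 0.16. The cytokinesis genes Racgap1, Ect2 and Anln changed by -0.60 ± 0.15, -0.58 ± 0.14 and -0.51 ± 0.15.

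**Figure D2:**
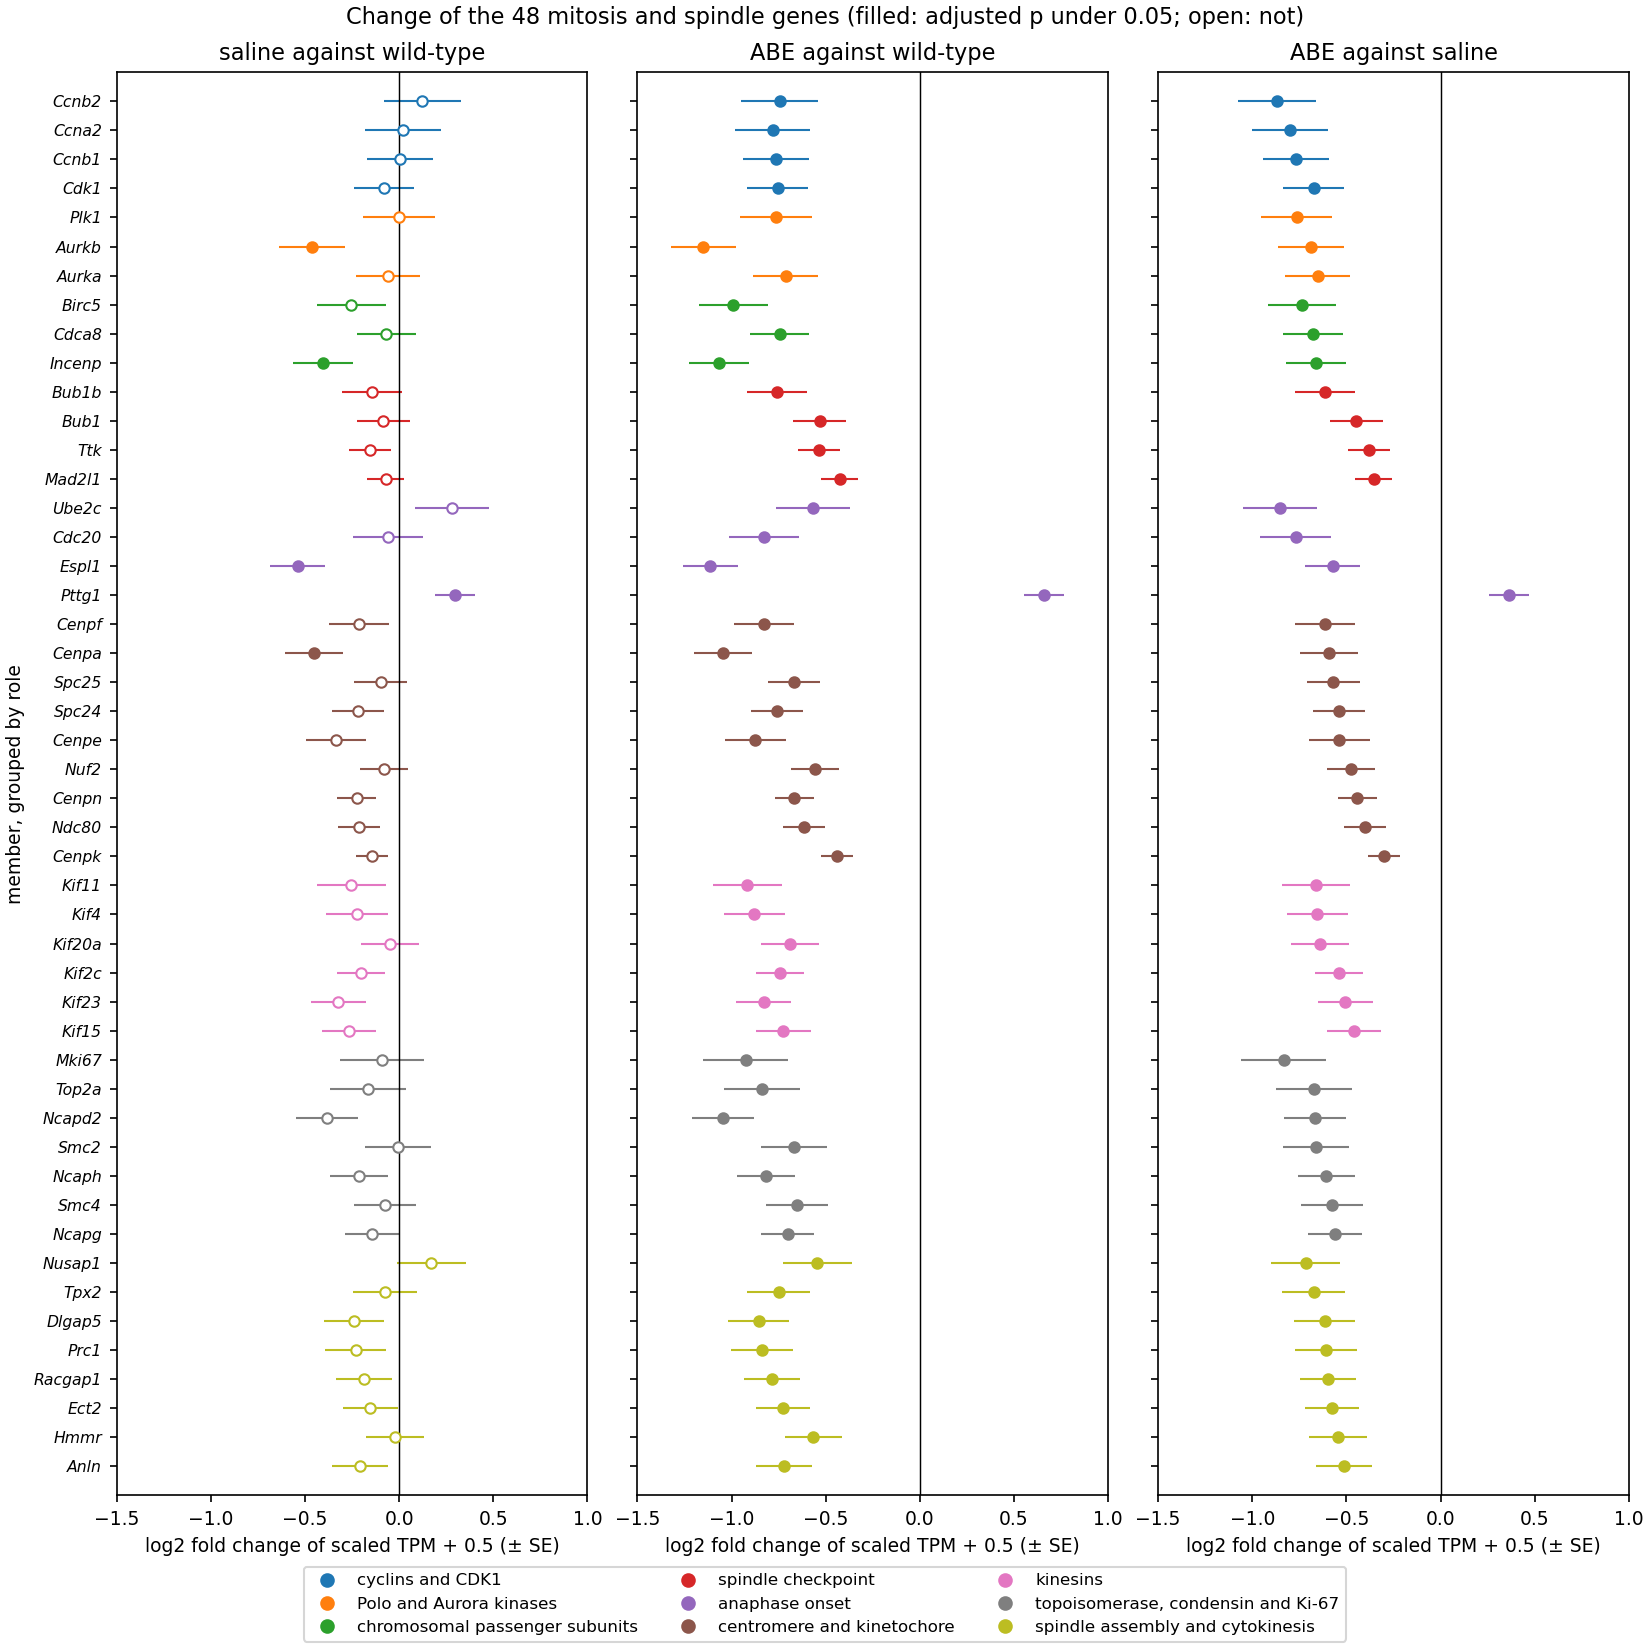
Log2 fold change with its SE of each of the 48 members in 3 comparisons, colored by role, with filled points for an adjusted p under 0.05. In both comparisons of ABE-treated mice 47 points lie left of 0 and Pttg1 lies right of it, while most points of saline-treated against wild-type mice are open.

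Against wild-type mice the members were lower in ABE-treated mice as well. The same 12 ABE-treated libraries enter both comparisons. Here 47 of 48 fell and Pttg1 rose (limma, adjusted p under 0.05), beside 70.5% of all genes called, 35.8% lower and 34.7% higher. The median was -0.75, against -0.022 over all genes. Aurkb fell by 1.15 ± 0.17 (SE) on the log2 scale, 2.22-fold (limma adjusted p = 8.37e-07), Espl1 changed by -1.11 ± 0.15 (adjusted p = 8.43e-08) and Incenp by -1.07 ± 0.16 (adjusted p = 7.11e-07). At the other end, Mad2l1 changed by -0.43 ± 0.10 (adjusted p = 0.000294) and Cenpk by -0.44 ± 0.08 (adjusted p = 2.64e-05). Mki67 changed by -0.93 ± 0.23 (adjusted p = 0.0005), and Pttg1 rose by 0.66 ± 0.10 (SE) on the log2 scale, 1.58-fold (limma adjusted p = 1.55e-06). For Aurkb, Cenpa, Espl1, Incenp and Ncapd2, 10 of 12 ABE-treated libraries were below the lowest wild-type library, yet the ranges overlapped for all 48, beside 8.68% of all genes whose groups did not overlap.

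Few members passed the test when saline-treated mice were set against wild-type mice. Of 48, 4 fell and 1 rose (limma, adjusted p under 0.05), beside 52.7% of all genes called, 27.0% lower and 25.7% higher, so the share of members called was below that of all genes. The median was -0.15, against 0.0013 over all genes. Espl1 ranged from 2.09 to 4.19 scaled TPM in wild-type mice (median 3.59), from 1.03 to 2.99 in saline-treated mice (median 2.22) and from 0.376 to 2.63 in ABE-treated mice (median 1.33). All 12 saline-treated libraries were below the wild-type median, although the ranges overlapped, as they did for all 48 members, beside 7.51% of all genes without overlap. Espl1 fell by 0.54 ± 0.15 (SE) on the log2 scale, 1.45-fold (limma adjusted p = 0.00263), Aurkb changed by -0.46 ± 0.17 (adjusted p = 0.0266), Cenpa by -0.45 ± 0.15 (adjusted p = 0.0143) and Incenp by -0.40 ± 0.16 (adjusted p = 0.034). Securin, which holds separase inactive, was the 1 member called higher, at 0.30 ± 0.10 (adjusted p = 0.0175). Ncapd2 lay just outside the threshold at -0.38 ± 0.16 (adjusted p = 0.0507).

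The cyclins and CDK1 did not pass this test, with values from -0.08 (Cdk1) to 0.12 (Ccnb2), and Plk1 and Mki67 stood at -0.00 ± 0.19 and -0.09 ± 0.23. This count depended on single libraries. Without saline-treated replicate 11, the lowest saline-treated library, 3 members were called, beside 7896 of 16123 genes. Without wild-type replicate 6, the lowest wild-type library, 10 were called, beside 8833 genes. Without ABE-treated replicate 1, wild-type replicate 10 or saline-treated replicate 4 it was 9, 8 and 8, beside 9006, 8462 and 8750 genes. On the TPM as deposited 3 members were called, beside 4742 genes. In each of these fits the share of members called was below that of all genes. In both comparisons of ABE-treated mice the count stayed at 48 whichever library was left out. The tissue differed as well. In saline-treated against wild-type mice 5 of 5 osteocyte markers were higher (median 2.77), beside 25.7% of all genes. There 4 of 4 cartilage (median -2.04), 6 of 6 megakaryocyte (median -0.91) and 6 of 6 mature B cell markers (median -1.34) were lower, beside 27.0% of all genes. The part of these cells in the members' values was not tested. The study describes the mice as littermates, while wild-type mice carry another series of numbers in their titles than LMNA G/G mice. Any cohort behind those numbers and the genotype cannot be told apart. The labels give an injection at P14 for both LMNA G/G groups and none for wild-type mice. Injection and genotype cannot be told apart either.

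Within single libraries the mitosis genes went with erythroid precursor markers. For each list of markers a library's level was the mean, over its tested genes, of log2 scaled TPM (with 0.5 added) after centring each gene. The erythroid list (19 tested genes such as Slc4a1, Alas2, Rhd and the transcription factors Gata1 and Klf1) summed to 220 to 560 in wild-type libraries, 173 to 560 after saline and 51.3 to 428 after ABE, in scaled TPM. The neutrophil precursor list (8 tested genes of primary granules and their regulators, led by Elane, Mpo, Prtn3 and Ctsg) summed to 103 to 248 in wild-type libraries, 99.5 to 300 after saline and 29.5 to 313 after ABE. The B cell precursor list was sparse, with 6 of 10 genes tested, led by Vpreb3, Rag1, Vpreb1 and Igll1, and summed to 9.15 to 18.4 in wild-type libraries, 6.55 to 20.9 after saline and 3.46 to 17.1 after ABE; Vpreb2, Rag2, Arpp21 and Lef1 were under the filter. Markers of blood precursors were thus still measured in bone from which marrow had been removed.

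In ABE-treated against saline-treated mice, where 23.7% of all genes were called lower, 19 of 19 erythroid precursor markers fell (median -0.95). So did 8 of 8 neutrophil precursor markers (median -0.78). Of the B cell precursor markers 2 of 6 fell (median -0.21), a share near that of all genes. Slc4a1, the anion exchanger of red cells, changed by -1.14 ± 0.26 (adjusted p = 0.00142) and Alas2, of heme synthesis, by -1.07 ± 0.26 (adjusted p = 0.00193). Mpo and Elane changed by -0.89 ± 0.29 (adjusted p = 0.0139) and -0.89 ± 0.31 (adjusted p = 0.0189). Igll1 changed by -0.34 ± 0.15 (adjusted p = 0.0599) and Rag1 by 0.35 ± 0.17 (adjusted p = 0.0827). Neither of these B cell precursor genes is among the 2 that were called lower. In saline-treated against wild-type mice, where 27.0% of all genes were called lower, 1 of 19 erythroid, 0 of 8 neutrophil and 3 of 6 B cell precursor markers were lower, at level differences of -0.11, 0.15 and -0.41 beside -0.14 for the members. Of the 8 neutrophil precursor markers 0 rose either, and Elane stood at 0.31 ± 0.31 (adjusted p = 0.421).

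Over the 36 libraries, with group and sex means taken out, the member level correlated with the erythroid precursor level at r = 0.968 (Spearman's rho 0.956), with the neutrophil precursor level at r = 0.772 (rho 0.624) and with the B cell precursor level at r = 0.448 (rho 0.308). These are descriptions with no p, and all levels of a library share its depth and scaling. Without the 2 libraries farthest from the median marker level r was 0.953, 0.672 and 0.315, and without ABE-treated replicate 1 it was 0.958, 0.684 and 0.224. With all 12 libraries of a group kept, r with the erythroid level was 0.937 for wild-type, 0.914 for saline and 0.971 for ABE.

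The other lists were less even. For neutrophil precursors r was 0.535 for wild-type, 0.667 for saline and 0.853 for ABE, and without the 2 farthest libraries it was 0.0134, -0.0739 and 0.749. Values inside the groups without the 2 farthest libraries are not given here for the erythroid and B cell lists. The B cell precursor level gave 0.369, 0.340 and 0.627 within the groups, 0.0015 over the 18 males and 0.683 over the 18 females. Of the 48 members, 47 had their highest r among these lists with erythroid precursors, and the remaining one, Pttg1, was negative with all 3. The lists differed in abundance and in tested genes (19 erythroid, 8 neutrophil and 6 B cell). The part of this in the size of r was not tested. For 47 members r with the erythroid level was above 0.8, as it was for 7.83% of all genes tested, and the median over members was 0.951. With neutrophil precursors 6 members exceeded 0.8 and with B cell precursors 0 did, beside 1.70% and 0.081% of all genes. An r above 0.8 was not particular to precursors. With the level of mature neutrophil markers 46 members exceeded 0.8 (median 0.864), beside 6.45% of all genes.

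**Figure D3:**
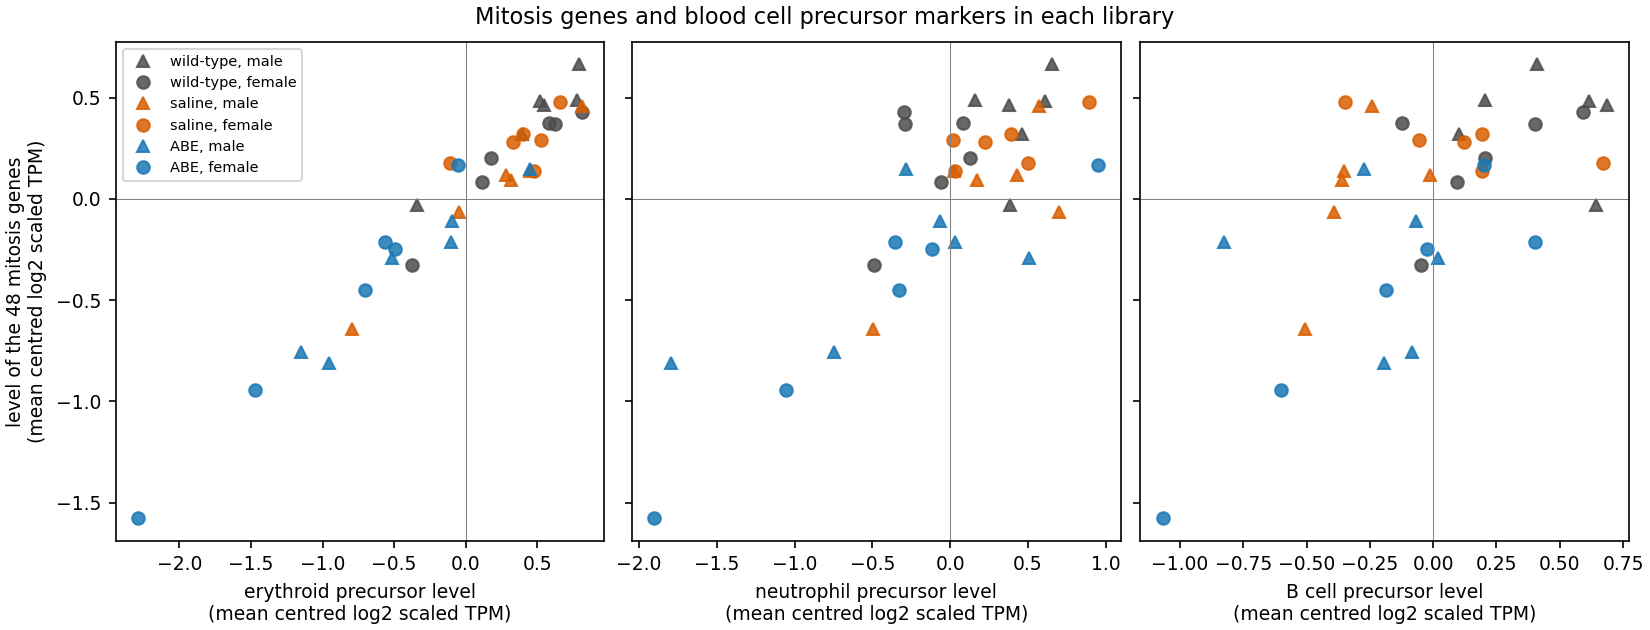
Mean level of the 48 members against the level of erythroid, neutrophil and B cell precursor markers in each of 36 libraries, both as mean centred log2 scaled TPM, with color for group and shape for sex. The points follow a line for erythroid precursors (r = 0.968 with group and sex means taken out) and scatter more for neutrophil (0.772) and B cell precursors (0.448).

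Single libraries went with the erythroid level to different degrees. ABE-treated replicate 1 was lowest in members (-1.58) and in erythroid (-2.29), neutrophil (-1.90) and B cell (-1.07) precursors. ABE-treated replicate 12 had the lowest neutrophil level but one (-1.80), near that of replicate 1, yet its members stood at -0.81 and its erythroid precursors at -0.96. ABE-treated replicate 2 had the highest neutrophil level of all libraries (0.95), with members at 0.17 and erythroid precursors at -0.05. Wild-type replicate 11 was highest in members (0.66), with erythroid precursors at 0.79. Other libraries followed less closely. Wild-type replicate 10 had members at -0.03, with erythroid, neutrophil and B cell precursors at -0.34, 0.38 and 0.64. Saline-treated replicate 3 had members at 0.18, with these levels at -0.11, 0.50 and 0.67. The erythroid level alone took up 93.7% of the variance of the member level within groups, the neutrophil level alone 59.6%, the B cell level alone 20.1%, neutrophil and B cell levels together 62.5% and all 3 98.5%. The levels were themselves related, at r = 0.644 for erythroid with neutrophil, 0.324 for erythroid with B cell and 0.375 for neutrophil with B cell precursors.

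Other cell lists moved too. The member level correlated at r = 0.875 with mature neutrophil markers, which belong to cells that no longer divide, at 0.855 with hemoglobin genes, at 0.760 with megakaryocyte and at 0.365 with macrophage markers. It correlated at -0.51 with stem and progenitor, -0.65 with endothelial, -0.65 with skeletal muscle, -0.37 with osteocyte, -0.18 with osteoblast and 0.10 with osteoclast markers. Hemoglobin genes, otherwise among the most abundant of erythroid cells, summed to 6.51 to 19.5 in wild-type libraries, 4.94 to 29.3 after saline and 1.78 to 22.7 after ABE, far under the erythroid precursor list. In ABE-treated against saline-treated mice 7 of 8 skeletal muscle markers rose (median 1.34), beside 24.8% of all genes. There 6 of 6 megakaryocyte markers (median -0.89) and 6 of 6 macrophage markers (median -0.62) fell, beside 23.7% of all genes. Skeletal muscle markers summed to 193 to 2954 in wild-type libraries, 290 to 7408 after saline and 1005 to 12286 after ABE, so muscle RNA was present in amounts that differed by group.

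With a precursor level as a covariate, the fall of the members in ABE-treated against saline-treated mice was kept or lost depending on the level used. With the B cell precursor level, which differed by only -0.13 between these groups, all 48 members were still called, beside 44.2% of all genes. Their directions were the same (median -0.53). With the neutrophil precursor level 0 were called at an adjusted p under 0.05, beside 4.56% of all genes. At an unadjusted p under 0.05 there were 25, beside 4211 of 16123 genes. The median was -0.24 and 47 members kept a value below 0. With the erythroid precursor level 0 members were called, beside 0.36% of all genes, and 0 had an unadjusted p under 0.05, beside 2425 of 16123 genes. The median was 0.02 and 14 of 48 had a value below 0. By limma with all 3 levels 0 were called, beside 1.22% of all genes, and 7 had an unadjusted p under 0.05, beside 2731 of 16123 genes. The median was 0.02.

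Mki67 went from -0.83 ± 0.23 to -0.73 ± 0.20 (adjusted p = 0.00536), -0.34 ± 0.18 (adjusted p = 0.235) and 0.10 ± 0.07 (adjusted p = 0.574) with the B cell, neutrophil and erythroid precursor levels. Ccnb2 went from -0.87 ± 0.21 to -0.77 ± 0.18 (adjusted p = 0.00178), -0.38 ± 0.15 (adjusted p = 0.121) and -0.04 ± 0.09 (adjusted p = 0.855). Both lost nearly all of the difference with the erythroid level and kept most of it with the B cell level. Pttg1 stood at 0.11 ± 0.11 (adjusted p = 0.670) with the erythroid level.

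Calls were lost over the whole table too, with 58 of 16123 genes left at the erythroid level and 735 at the neutrophil level, against 7817 without a covariate. Levels of cells that do not divide also took the calls away. With the skeletal muscle level 0 members were called by limma, beside 11.4% of all genes, and the median was -0.30. There 34 members had an unadjusted p under 0.05, beside 4859 of 16123 genes. With the mature neutrophil level, an alternative chosen after seeing the data, 0 were called by limma, beside 5.83% of all genes, and the median was -0.21. There 25 members had an unadjusted p under 0.05, beside 4166 of 16123 genes. The erythroid level differed between the groups by -0.94 and the neutrophil level by -0.72, so what these covariates remove and what the treatment carries cannot be told apart. The B cell level differed by -0.13, so as a covariate it could remove little of the members' difference. Without ABE-treated replicate 1 the counts with the erythroid, neutrophil and B cell levels were 0, 0 and 48, beside 304, 1309 and 6707 of 16123 genes.

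**Figure D4:**
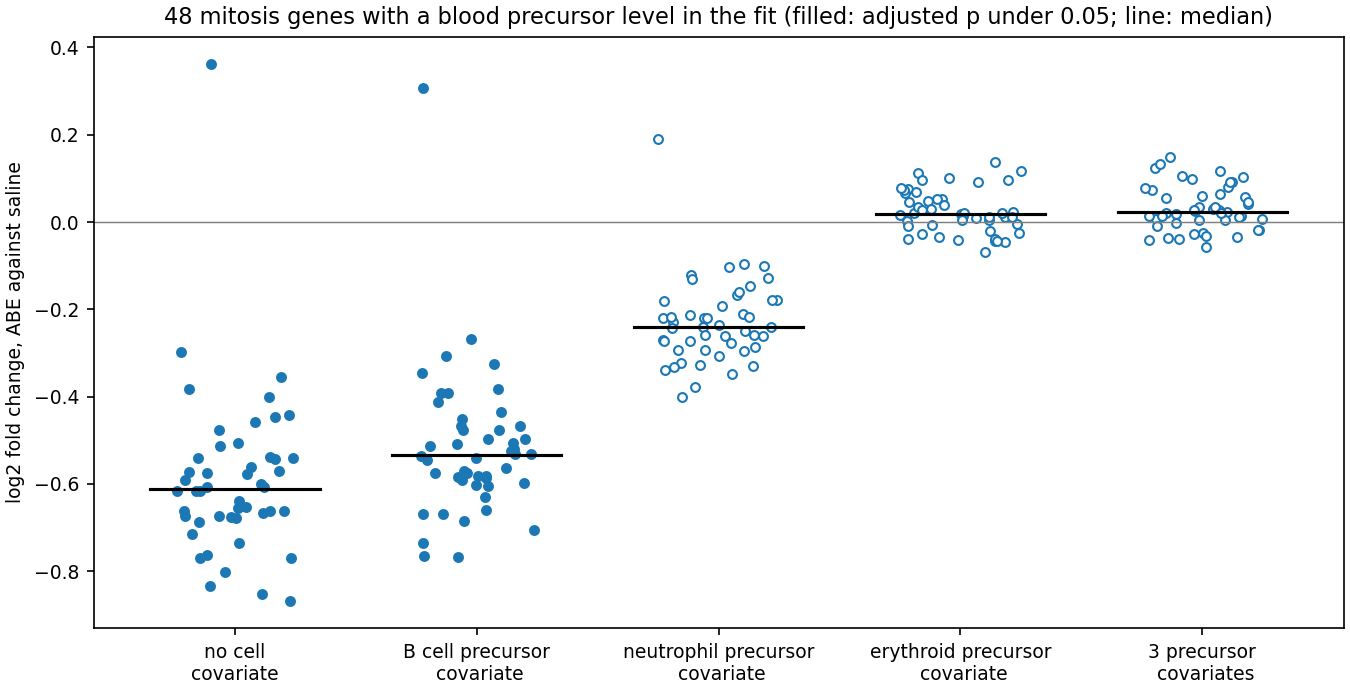
Log2 fold change of the 48 members in ABE-treated against saline-treated mice without a cell covariate and with precursor levels in the fit, with a line at the median and filled points for an adjusted p under 0.05. The median is -0.61 without a covariate, -0.53 with B cell, -0.24 with neutrophil and 0.02 with erythroid precursors.

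Against wild-type mice, ABE-treated mice lost most calls with the erythroid level in the fit, and the members called were a smaller share than over all genes. There 12 members were called, 9 lower and 3 higher (median -0.05), beside 46.9% of all genes called, 23.5% lower and 23.4% higher. Espl1 stood at -0.46 ± 0.07 (adjusted p = 2.95e-06) and Aurkb at -0.38 ± 0.09 (adjusted p = 0.000795), while Ube2c, lower without the covariate, was higher at 0.33 ± 0.07 (adjusted p = 0.000499). With all 3 precursor levels 20 were called, 10 lower and 10 higher, beside 43.9% of all genes, 22.6% lower and 21.3% higher, and 9 of the 10 higher had been called lower without them. The neutrophil and B cell levels left 46 and 33 members called, beside 65.0% and 57.4% of all genes, and the skeletal muscle level left 6, beside 36.6%.

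For saline-treated against wild-type mice the erythroid covariate did the opposite and raised the count from 5 to 25, with 21 members lower and 4 higher. Over all genes 58.8% were called, 29.8% lower and 29.0% higher, so the share of members called was still below that of all genes. The standard errors became smaller: Espl1 went from -0.54 ± 0.15 to -0.47 ± 0.05 (adjusted p = 5.00e-09) and Aurkb from -0.46 ± 0.17 to -0.38 ± 0.07 (adjusted p = 1.52e-05). The members called higher were Ube2c at 0.38 ± 0.06 (adjusted p = 1.12e-06), Ccnb2 at 0.22 ± 0.07 (adjusted p = 0.0087), Nusap1 at 0.26 ± 0.06 (adjusted p = 0.000888) and Pttg1 at 0.27 ± 0.09 (adjusted p = 0.00972). Mki67 stood at 0.02 ± 0.06 (adjusted p = 0.822). With the neutrophil level 26 were called, again a smaller share than the 60.7% of all genes. With the B cell level it was 1, beside 42.2%, which was Ube2c at 0.55 ± 0.20 (adjusted p = 0.0239). Without ABE-treated replicate 1 the 1 call with the B cell level was Espl1, lower, and no longer Ube2c.

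**Figure D5:**
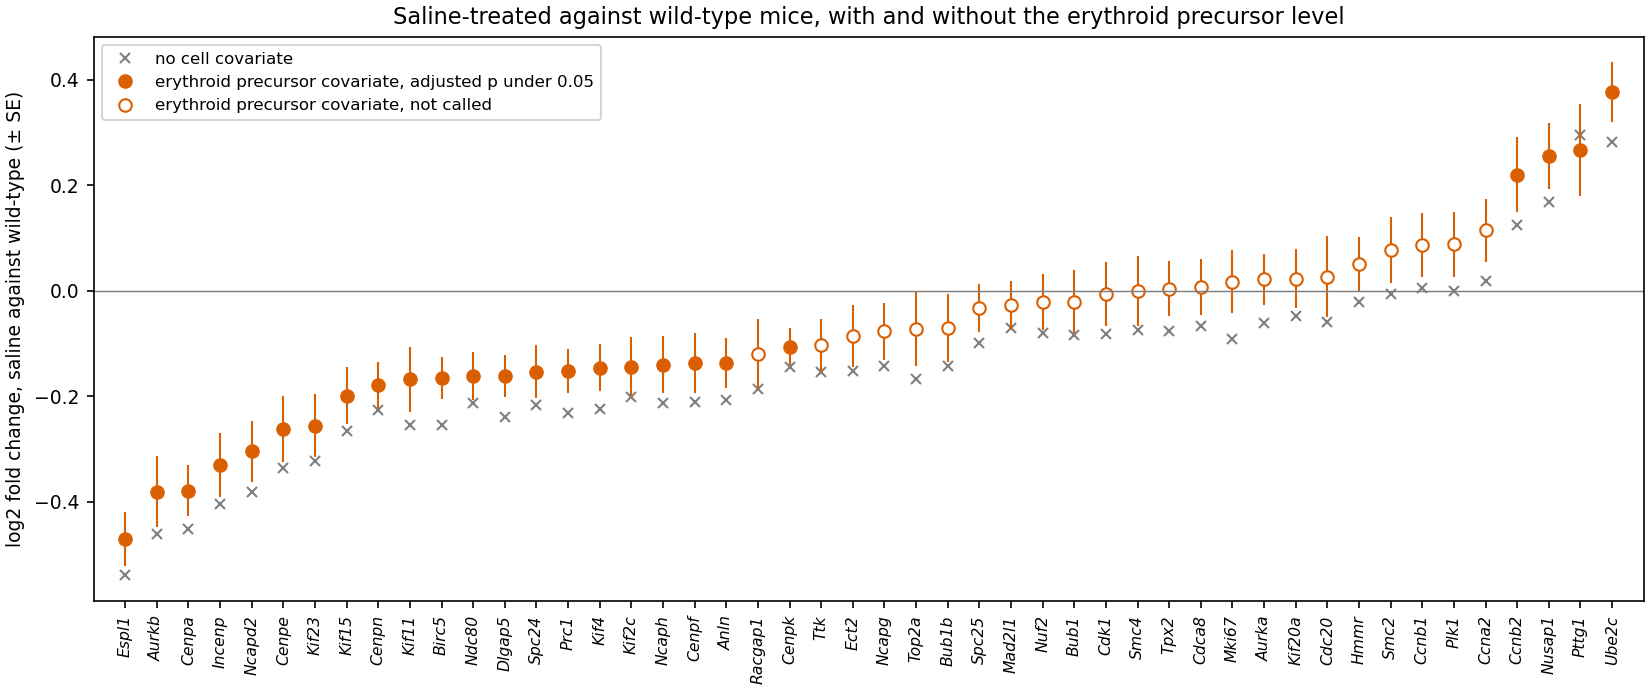
Log2 fold change of each member in saline-treated against wild-type mice with the erythroid precursor level in the fit (circles with SE, filled for an adjusted p under 0.05) and without it (crosses). Of the 25 filled points 21 lie below 0, led by Espl1, and 4 lie above it, led by Ube2c.

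Males and females were not shown to differ. The test of the difference between the sexes (limma interaction) called 0 members in each of the 3 comparisons, beside 0.478%, 2.95% and 0.0248% of all genes. At an unadjusted p under 0.05 it gave 4 members for saline-treated against wild-type, 0 for ABE-treated against wild-type and 3 for ABE-treated against saline-treated mice. Over all genes it gave 3553, 3129 and 2628 of 16123. In the last comparison the members were Mki67, Espl1 and Incenp, and the male change of Mki67 less the female one was 0.92 ± 0.43 (limma adjusted p = 0.292). Fitted alone for ABE-treated against saline-treated mice, females gave 48 members called (median -0.88, 30.3% of all genes). Males gave 0 by limma (median -0.35, 21.0% of all genes), and 14 had an unadjusted p under 0.05, beside 6037 of 16123 genes. For saline-treated against wild-type mice, males gave 16 called (median -0.41, 54.9% of all genes). Females gave 0 by limma (median 0.10, 21.6% of all genes), and 0 had an unadjusted p under 0.05, beside 5430 of 16123 genes. Saline-treated replicate 11 is a male and ABE-treated replicate 1 a female.

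Genes around this program moved with it to different degrees, beside 23.7% of all genes called lower in ABE-treated against saline-treated mice. Of 60 other tested mitosis genes, 59 fell in ABE-treated against saline-treated mice (median -0.44), among them Cdc25b, a phosphatase that activates CDK1, at -0.76 ± 0.18 (adjusted p = 0.00155) and Kifc1, a minus-end kinesin, at -0.73 ± 0.17 (adjusted p = 0.00128). Of 38 DNA replication genes 37 fell (median -0.49), with Rrm2, of ribonucleotide reductase, at -0.86 ± 0.23 (adjusted p = 0.004) and Mcm5, of the replicative helicase, at -0.74 ± 0.20 (adjusted p = 0.00339). The level of these lists correlated with the member level at r = 0.996 and 0.990.

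Among 18 transcription factors of mitotic and E2F-driven genes, 12 fell and 1 rose, beside 23.7% and 24.8% of all genes. E2f2 changed by -0.92 ± 0.20 (adjusted p = 0.00117), E2f8 by -0.79 ± 0.19 (adjusted p = 0.00183), E2f4 by -0.48 ± 0.11 (adjusted p = 0.00162) and Tfdp1, a partner of E2F, by -0.32 ± 0.10 (adjusted p = 0.00751), while the 1 that rose was Rbl2, which encodes the DREAM subunit p130, at 0.19 ± 0.05 (adjusted p = 0.00208). In saline-treated against wild-type mice 8 of these 18 were lower and 1 higher, beside 27.0% and 25.7% of all genes. Foxm1 and Mybl2, which activate mitotic genes and were named after their values were seen, changed by -0.48 ± 0.13 (adjusted p = 0.00423) and -0.73 ± 0.17 (adjusted p = 0.00132) in ABE-treated against saline-treated mice.

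The anaphase promoting complex, cohesin and the CDK inhibitors are read here beside the 23.7% of all genes called lower and 24.8% called higher in this comparison. Of 13 genes of the anaphase promoting complex, 3 fell and 3 rose (median 0.02). The latter were Anapc5, Anapc11 and Anapc13, with Anapc5 at 0.29 ± 0.08 (adjusted p = 0.00595) and the activator Fzr1 at -0.65 ± 0.14 (adjusted p = 0.000883). Of 10 cohesin genes 5 fell (median -0.13), with Rad21 at -0.37 ± 0.09 (adjusted p = 0.0017). Of 5 tested CDK inhibitors 3 fell and 1 rose, with Cdkn2d at -0.60 ± 0.13 (adjusted p = 0.00111) and Cdkn1c, the one that rose, at 0.37 ± 0.12 (adjusted p = 0.0141). Cdkn1a, which encodes p21, was higher in both LMNA G/G groups than in wild-type mice, by 1.72 ± 0.13 (adjusted p = 2.81e-12) in saline-treated and 1.96 ± 0.13 (adjusted p = 1.17e-13) in ABE-treated mice, and stood at 0.24 ± 0.13 (adjusted p = 0.118) between them. With group and sex means taken out, the level of the CDK inhibitors correlated with the member level at r = 0.680 (36 libraries). Inside the groups of 12 this was uneven, at 0.327 for wild-type, 0.539 for saline and 0.821 for ABE. Without the 2 farthest libraries of each group it was 0.507, 0.0928 and 0.498.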

How the data were processed

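Bulk RNA-seq of tibiae of 36 mice was analyzed: 12 wild-type, 12 saline-treated and 12 ABE-treated LMNA G/G mice, grouped by their labels. The authors prepared stranded poly(A) libraries, aligned reads to GRCm38 with STAR (version 2.73a per the labels), used QoRTs for counting over GENCODE genes, and deposited a table of TPM of 56246 genes; how TPM were calculated is not described in the sources used here. Gene positions given here come from GENCODE vM21 (GRCm38).

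Reads on each gene were recovered from TPM and gene length less 218 bp (100% of values whole within 0.01 reads) and used for depth and for limma-voom. TPM were divided by each library's median ratio over 14219 genes, 0.5 was added, and log2 values of genes averaging 0.5 TPM or more were fitted with limma 3.58.1 (R 4.3.3), with sex as covariate and all groups in 1 fit. Calls used a Benjamini-Hochberg adjusted p under 0.05 over 16123 genes. The deposited table holds TPM, and the study's own count model was not run on the recovered reads. The fit and the interaction were tested on simulated data. Python 3.11.15 (pandas 2.3.3, scipy 1.17.1) gave the rest.

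The members, roles, marker lists and tests were chosen with earlier results of these data known. Members shown in full were the highest of each of 9 roles; Pttg1, Ube2c, Espl1 and Aurkb were added after their values were seen. Of other lists, values are given for at most the 4 most abundant genes and for 5 or fewer genes called against the direction of the list; Foxm1 and Mybl2 were added after their values were seen. Alternatives were other scalings, pseudocounts of 0.1 and 1, no filter or 5 TPM, voom, an intensity trend, array weights, no sex covariate, fewer samples, cell covariates and each library left out. The human transgene was not analysed here.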

Additional observations from a re-analysis of the deposited data

How the results depend on the processing

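Across 36 fits that each left out 1 library, 48 members were called in both comparisons of ABE-treated mice, with medians between -0.69 and -0.50 against saline-treated and between -0.82 and -0.64 against wild-type mice. Saline-treated against wild-type gave 3 to 10 called, beside 7896 to 9006 of 16123 genes, and medians between -0.20 and -0.08. Quantile normalization, both pseudocounts, no filter, voom, an intensity trend, array weights and no sex covariate kept 48 called in both comparisons of ABE-treated mice. The TPM as deposited gave 47 in each, with Pttg1 no longer called, and a median of -1.16 against wild-type mice, while the median of all genes moved to -0.43 there, -0.27 in ABE-treated against saline-treated and -0.13 in saline-treated against wild-type mice. On that scale 9458 genes were called lower and 1470 higher in ABE-treated against wild-type, 6574 and 531 in ABE-treated against saline-treated and 3704 and 1038 in saline-treated against wild-type mice. The filter at 5 TPM left 11 members, of which 11, 11 and 2 were called in ABE-treated against wild-type, ABE-treated against saline-treated and saline-treated against wild-type mice. Of the 4048 genes it left, 2710, 1828 and 2124 were called.

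For saline-treated against wild-type mice the 5 calls became 3 (TPM as deposited), 8 (pseudocount 1), 24 (array weights), 9 (the compared groups alone), 16 (males), 0 (females, 0 with an unadjusted p under 0.05), 25 (erythroid), 26 (neutrophil), 1 (B cell), 27 (all 3 precursors), 3 (skeletal muscle) and 47 (mature neutrophil covariate). Over all genes 4742, 8469, 10407, 9351, 8848, 3487, 9480, 9779, 6796, 8249, 7379 and 10810 of 16123 were called, in the same order. The share of members called was above that of all genes only with all 3 precursors and with the mature neutrophil level. With the B cell and muscle covariates all 5 calls were lost, and the 1 and 3 members called were others, called higher. The median turned positive in females (0.10) and with the B cell (0.054) and muscle (0.11) covariates. For ABE-treated against wild-type mice the counts and medians were 12 and -0.054 (erythroid), 20 and -0.038 (3 precursors), 6 and -0.16 (muscle), and, chosen after seeing the data, 13 and -0.064 (erythroid without ABE-treated replicate 1) and 8 and -0.12 (erythroid on deposited TPM). Over all genes 7566, 7085, 5900, 7765 and 3388 of 16123 were called in these fits, in the same order. For ABE-treated against saline-treated mice 0 were called by limma in males (14 with an unadjusted p under 0.05) and with the erythroid (0), neutrophil (25), 3 precursor (7), muscle (34) and mature neutrophil (25) covariates. Over all genes 6037, 2425, 4211, 2731, 4859 and 4166 of 16123 had an unadjusted p under 0.05, in the same order. The medians were 0.019 (erythroid), 0.024 (3 precursors) and -0.21 (mature neutrophil), and 0.0096 and 0.014 for the erythroid level without ABE-treated replicate 1 and on deposited TPM, again with 0 called. Without ABE-treated replicate 1, saline-treated against wild-type gave 25, 25 and 1 called with the erythroid, neutrophil and B cell levels, beside 9677, 9957 and 6978 of 16123 genes. The 1 was Espl1, lower, in place of Ube2c, and the median with the B cell level was -0.015. ABE-treated against saline-treated mice gave 0 with the neutrophil level, beside 1309 genes.

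Over all 48 members and the alternatives chosen first, 224 of 2481 values changed sign, 105 of them called in at least 1 of both fits and 11 in both. Of the genes shown in full, with those added after their values were seen, 550 of 684 values kept their side of the threshold, among them 29 uncalled values that changed sign, 93 lost the call, 12 gained it and 29 that were called in at least 1 fit turned. Of the last, with the erythroid and the 3 precursor covariates, these were, against wild-type, Ccnb2 (0.18 and 0.23), Plk1 (0.091 and 0.14), Ube2c (0.33 and 0.36), Mki67 (0.11 and 0.15) and Tpx2 (0.015 and 0.059) in ABE-treated mice, Cdc20 (0.060) with 3 precursors, Ube2c with muscle (0.092) and, in saline-treated mice with 3 precursors, Plk1 (0.14). Against saline-treated mice they were Plk1 (0.0020 and 0.0046), Aurkb (0.0037 and 0.013), Bub1b (0.013 and 0.020), Espl1 (0.013 and 0.012), Cenpa (0.035 and 0.042), Kif11 (0.076 and 0.092), Mki67 (0.10 and 0.10) and Tpx2 (0.011 and 0.015). The cause was not tested.

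The difference between the sexes called 0 members by limma in each comparison under 9 alternatives. At an unadjusted p under 0.05 the TPM as deposited gave 10 members for saline-treated against wild-type and 29 for ABE-treated against saline-treated mice (median of the male change less the female one 0.87), and quantile normalization gave 14 and 4. Over all 16123 genes these were 1467 and 5760 on the TPM as deposited, and 3723 and 2389 with quantile normalization. The correlations with precursor levels stayed positive when TPM were used as deposited, when no means were taken out and with z-scores. No paired analysis was possible because the titles carry a number of their own for each mouse and the groups share none. Changes in the lowest members are limited by the constant added before the logarithm.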
